A study of Homo sapiens with 14 samples.

Results

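Genes that mark the mesenchymal state of neuroblastoma were examined in CHP-134 cells, an established neuroblastoma line with amplified MYCN. The 10 markers VIM, FN1, PRRX1, SNAI2, TWIST1, YAP1, WWTR1, CD44, NOTCH2 and SOX9 were chosen by gene symbol. They were 10 of the 17810 genes listed for the EGFP and OmoMYC libraries and of the 19143 genes listed for the DMSO and dTAG47 libraries. The first experiment asked how gene expression changes when N-MYC is inhibited by OmoMYC, a mutated MYC dimerization domain. The second asked what the degrader dTAG47 does to cells that carry no degradable protein.

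Total RNA was depleted of ribosomal RNA and sequenced from 14 libraries. EGFP and OmoMYC libraries (3 each) came from cells with a Tet-On lentiviral construct for enhanced green fluorescent protein or for OmoMYC, and both received 1 µg/ml doxycycline for 3 days. DMSO and dTAG47 libraries (4 each) came from parental cells without a construct, given vehicle or 500 nM dTAG47 for 18 h. The EGFP and OmoMYC lines were transduced and selected in G418 separately, and no library without doxycycline was analysed here, so a difference between the lines and the effect of OmoMYC cannot be told apart. The engineered lines grew in tetracycline-free serum and the parental cells in normal serum. The study's methods call the replicates biological, and neither they nor the labels say whether each came from a separate culture, so p-values measure the spread between these libraries. In RNA from whole cultures, fewer cells of a kind and less RNA per cell cannot be told apart.

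Neuroblastoma cells occupy an adrenergic state, which resembles sympathetic neuroblasts, or a mesenchymal state, which resembles migratory neural crest cells. Mesenchymal cells are known for intermediate filaments and matrix (VIM, FN1), for transcription factors of the epithelial to mesenchymal transition (PRRX1, SNAI2, TWIST1), for the Hippo effectors YAP1 and WWTR1 (TAZ), and for CD44, NOTCH2 and SOX9. The homeobox factor PRRX1 and NOTCH signaling can drive adrenergic cells toward the mesenchymal state.

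The start regions of YAP1 and CD44 are shown because these markers had the largest fall and the largest rise with OmoMYC. Each run is the 250 bases before the annotated start, 5′ to 3′ on the sense strand, from RefSeq for GRCh38.p14, at chr11:102110197-102110446 (+) for YAP1 and chr11:35138921-35139170 (+) for CD44. Capitals mark CACGTG, the E-box that MYC and MAX bind, and GGAATG, the core that TEAD factors bind. The search covered both strands, and the motifs do not overlap one another.
YAP1: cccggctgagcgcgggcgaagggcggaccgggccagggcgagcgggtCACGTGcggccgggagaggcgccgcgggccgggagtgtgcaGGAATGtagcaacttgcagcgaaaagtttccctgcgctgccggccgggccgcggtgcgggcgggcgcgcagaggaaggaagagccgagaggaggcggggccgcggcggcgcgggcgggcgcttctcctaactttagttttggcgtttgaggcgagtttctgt
CD44: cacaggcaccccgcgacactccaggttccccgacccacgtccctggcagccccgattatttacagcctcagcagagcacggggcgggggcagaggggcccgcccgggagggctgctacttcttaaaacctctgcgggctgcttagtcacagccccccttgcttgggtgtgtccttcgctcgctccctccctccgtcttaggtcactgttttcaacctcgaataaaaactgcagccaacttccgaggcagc

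The YAP1 region held 1 E-box, which began 203 bases before the start, and 1 TEAD core, which began 162 bases before it. The CD44 region held neither, and no region of the other 5 markers with an entry (VIM, FN1, PRRX1, WWTR1 and NOTCH2) did. In all, 7 of the 10 markers matched an entry. Of 35116 start regions of this length, 6.34% held CACGTG and 11.9% held GGAATG or CATTCC. These are matches of letters only.

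Libraries held 28060817 to 53451641 counts. The adrenergic markers summed to 4071 to 4394 CPM (counts scaled to a common library size by TMM) in EGFP libraries, 4469 to 4654 CPM in OmoMYC libraries and 4457 to 4573 CPM in DMSO libraries, whereas Schwann, endothelial, immune and epithelial markers each summed to at most 13.7 CPM in any library. MYC, which covers the OmoMYC sequence, had 16 to 20 counts in EGFP libraries and 15040 to 20295 counts in OmoMYC libraries. MYCN was at 2408 to 2900 CPM with EGFP and at 2182 to 2312 CPM with OmoMYC, without overlap (log2 fold change -0.28, adjusted p = 0.0103). Pairs of replicates differed beyond counting noise in each group, with a chi-square over its degrees of freedom of 2.64 to 42.1, the highest being between EGFP replicates 1 and 3.

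Per kilobase of exons (RPKM, CPM divided by the length of all annotated exons), the markers spanned more than 3 orders of magnitude. TWIST1 was the highest marker in each group, at 142 ± 5.32 RPKM with EGFP, 106 ± 4.12 with OmoMYC, 143 ± 1.68 with DMSO and 142 ± 4.78 with dTAG47 (SD, n = 3, 3, 4 and 4). VIM came next, at 26.3 ± 2.70 RPKM with EGFP and 25.9 ± 0.664 with DMSO. Neither overlapped its neighbor in any group. The other markers were at most at 2.15 ± 0.0806 RPKM (FN1 with EGFP).

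Below them, the order depended on the cells. With EGFP, FN1 and SNAI2 (2.12 ± 0.237 RPKM) overlapped, PRRX1 followed at 1.44 ± 0.168, and YAP1 (1.25 ± 0.0599) overlapped SOX9 (1.15 ± 0.278). CD44 was eighth at 0.311 ± 0.0364 RPKM and stood apart from SOX9 above it. With OmoMYC, CD44 was sixth at 1.03 ± 0.200 RPKM, overlapping PRRX1 and SOX9, and YAP1 was eighth at 0.582 ± 0.0978. In DMSO cells FN1 (1.43 ± 0.0912 RPKM) stood alone, SNAI2 (0.846 ± 0.0479) overlapped SOX9 (0.826 ± 0.0369), and YAP1 (0.375 ± 0.0224) overlapped CD44 (0.327 ± 0.0259). WWTR1 and NOTCH2 were lowest, at 0.0542 ± 0.00892 and 0.0535 ± 0.0104 RPKM with DMSO, and they overlapped.

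**Figure D1:**
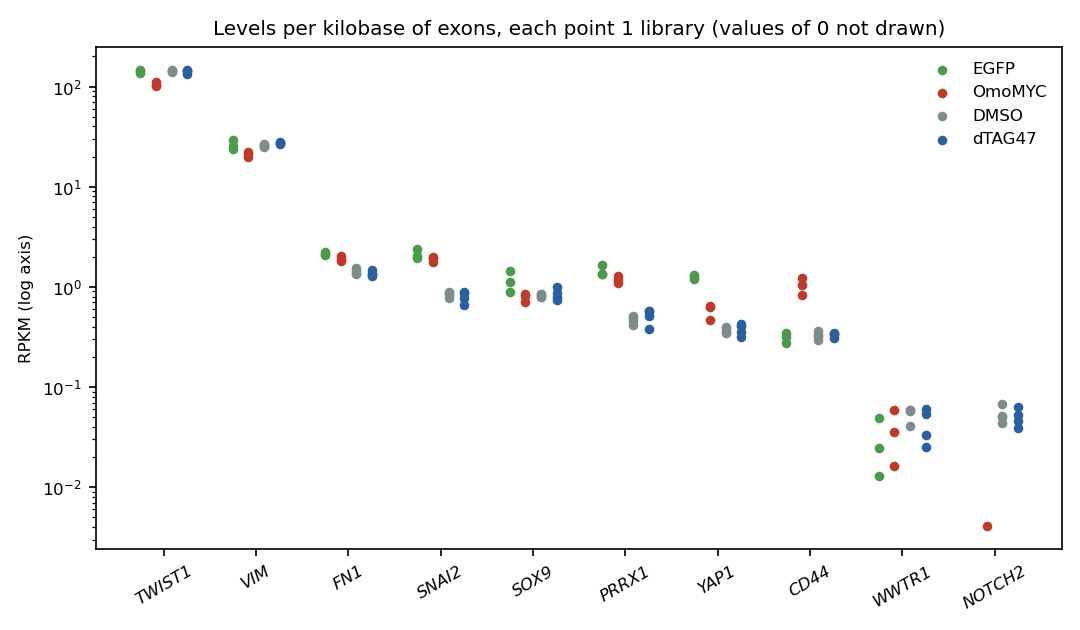
RPKM (CPM per kilobase of exons, log axis) of the 10 markers, with 1 point for each library and colors for the 4 groups. TWIST1 lies above 100 RPKM in each library, VIM near 20 to 29, and WWTR1 and NOTCH2 below 0.07, and the OmoMYC points of CD44 lie above those of the other groups.

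The 2 experiments were counted into separate tables, which share 17227 identifiers, so levels across them are set side by side without a test. TWIST1, VIM and CD44 had similar means in EGFP and DMSO libraries, at 283 and 285 CPM, 136 and 134 CPM, and 3.11 and 3.27 CPM. PRRX1 was at 11.9 ± 1.39 CPM with EGFP and 3.88 ± 0.331 CPM with DMSO. SNAI2 was at 6.97 ± 0.779 and 2.78 ± 0.157 CPM, and YAP1 at 7.91 ± 0.378 and 2.37 ± 0.141 CPM. For each of these 3 markers, the lowest EGFP library lay above the highest DMSO library. The same held for FN1 (35.6 and 26.5 CPM) and, narrowly, for SOX9 (3.47 and 3.38 CPM). NOTCH2 lay the other way, with 0 counts in EGFP libraries and 35 to 53 in DMSO libraries. The share of all shared genes that were separated in this way was not computed. The separation is therefore not shown to be particular to these markers. Fibroblast markers moved the same way, with a summed level of 120 to 130 CPM in EGFP libraries and 46.5 to 48.6 CPM in DMSO libraries, 0 of 8 genes at 0 in either group, and PDGFRA at means of 38.8 and 18.4 CPM (1023 to 1376 and 736 to 900 counts). The cells differ in construct, doxycycline, serum and time, and their counts come from separate tables. The part of each, and of the fibroblast markers, in these levels was not tested.

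**Figure D2:**
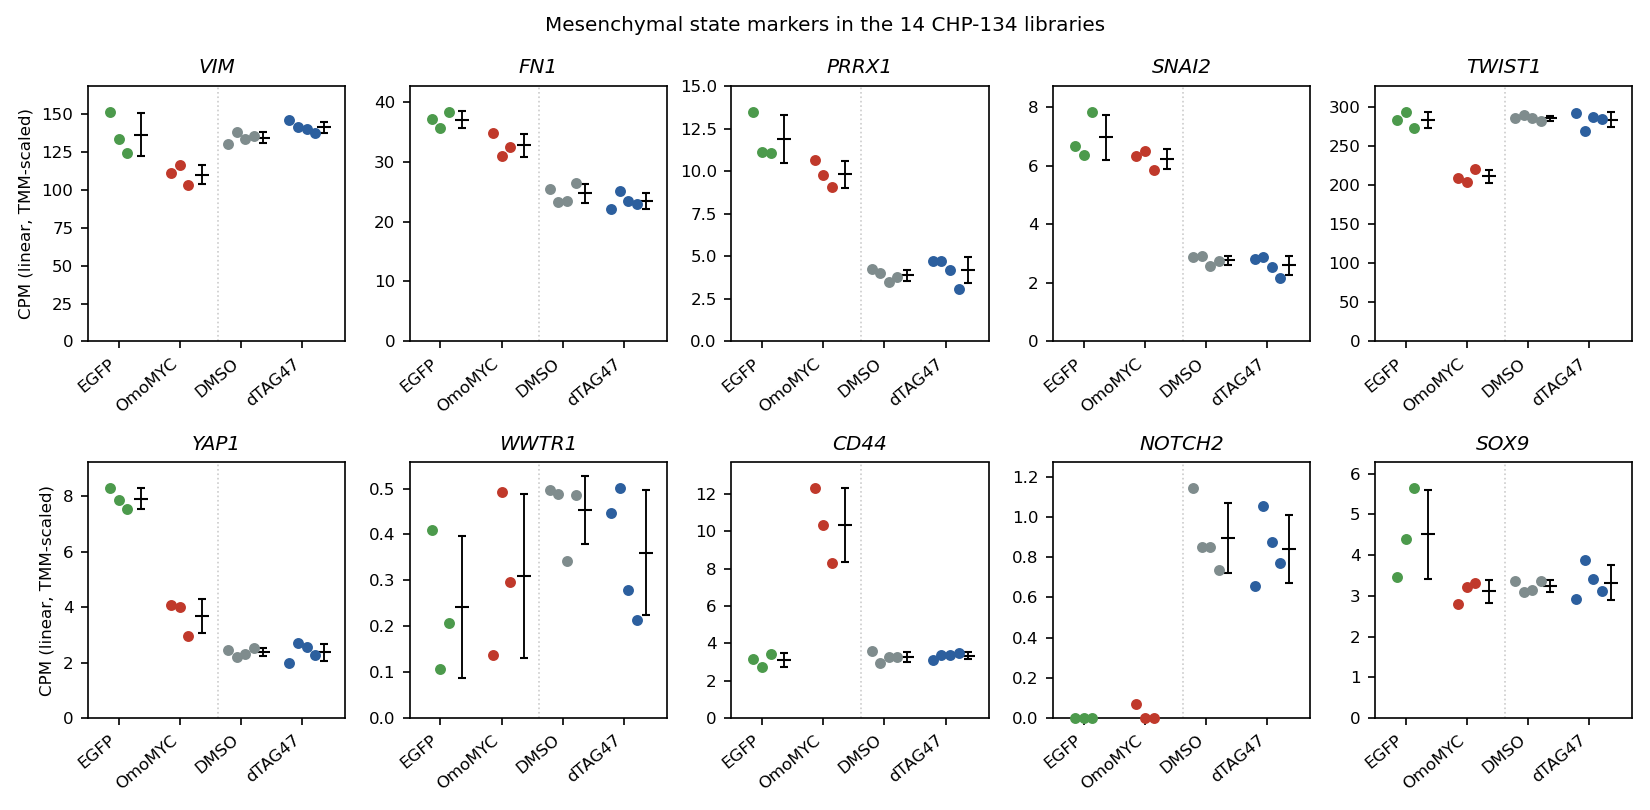
CPM (linear axis from 0) of each marker in the EGFP, OmoMYC, DMSO and dTAG47 libraries, with 1 point for each library and the mean ± SD beside them (none is drawn for NOTCH2 with EGFP and OmoMYC). A dotted line separates the 2 experiments. CD44 is at 8.32 to 12.3 CPM with OmoMYC and at 2.72 to 3.44 CPM with EGFP, and YAP1 is at 2.96 to 4.06 and 7.54 to 8.30 CPM.

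In OmoMYC relative to EGFP libraries, the markers differed in both directions. CD44 rose, and YAP1, SOX9, TWIST1 and VIM fell. FN1, PRRX1 and SNAI2 did not pass the test, and WWTR1 and NOTCH2 had too few counts for it. Thus 8 of the 10 markers were tested, of which 1 was called higher and 4 lower at an FDR of 0.05 by edgeR's quasi-likelihood test. Among all 13803 genes tested, 27.3% were called higher and 25.7% lower. After removal of a trend with GC content and length, 2977 genes were called higher and 5533 lower, instead of 3766 and 3545. EGFP and OmoMYC libraries did not overlap for 7 of the 8 tested markers and for 62.3% of all genes tested. The median log2 fold change of the 8 markers was -0.29, and that of all genes tested was 0.01.

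CD44, the cell surface receptor for hyaluronan, had the largest change among the tested markers (ENSG00000026508.12, chromosome 11 of hg19 from 35160429 to 35253949). It was at 3.15, 2.72 and 3.44 CPM in the EGFP libraries and at 12.3, 10.4 and 8.32 CPM in the OmoMYC libraries. The lowest OmoMYC library thus lay well above the highest EGFP library. The log2 fold change was 1.73 (95% interval 1.37 to 2.09, adjusted p = 1.76e-05), a 3.32-fold rise. Behind it were 76 to 100 counts with EGFP and 253 to 399 counts with OmoMYC.

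YAP1, the transcriptional coactivator restrained by the Hippo kinases, had the largest fall (ENSG00000137693.9, chromosome 11 from 101981178 to 102104155). It was at 8.30, 7.88 and 7.54 CPM with EGFP and at 2.96 to 4.06 CPM with OmoMYC, with 119, 154 and 90 counts behind the latter. No OmoMYC library reached the EGFP range, and the log2 fold change was -1.10 (95% interval -1.41 to -0.80, adjusted p = 1.12e-04). YAP1 thereby fell by 53.4%. In parental DMSO libraries, which were counted separately, YAP1 was lower than with OmoMYC, at 2.21 to 2.52 CPM. Its paralog WWTR1 (ENSG00000018408.10, chromosome 3 from 149235022 to 149454501) had 13, 3 and 6 counts with EGFP and 4, 19 and 9 counts with OmoMYC. These ranges overlapped, and a change of WWTR1 was not detectable at this depth.

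TWIST1, a basic helix-loop-helix factor of mesoderm and neural crest, had the most counts of the markers (ENSG00000122691.8, chromosome 7 from 19060614 to 19157259). It was at 283, 294 and 272 CPM with EGFP and at 209, 204 and 220 CPM with OmoMYC, without overlap. It fell by 25.4%, with a log2 fold change of -0.42 (95% interval -0.56 to -0.28, adjusted p = 3.79e-04). With the trend for GC content and length removed, the log2 fold change of TWIST1 was -0.69.

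VIM, the intermediate filament of mesenchymal cells, was at 151, 133 and 124 CPM with EGFP and at 111, 116 and 103 CPM with OmoMYC (ENSG00000026025.9, chromosome 10 from 17270240 to 17279592). The groups were close but did not overlap. VIM fell by 19.3%, with a log2 fold change of -0.31 (95% interval -0.50 to -0.12, adjusted p = 0.0116). FN1, which encodes the matrix protein fibronectin, was at 37.1, 35.6 and 38.3 CPM with EGFP and at 34.7, 30.9 and 32.4 CPM with OmoMYC (ENSG00000115414.14, chromosome 2 from 216225163 to 216300796). Its groups did not overlap either, but its log2 fold change of -0.18 (95% interval -0.35 to -0.0049) had an adjusted p of 0.0775. Without EGFP replicate 1 that p was 0.0395.

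SOX9, a factor of neural crest and cartilage, was at 3.47, 4.41 and 5.65 CPM with EGFP and at 2.80, 3.22 and 3.32 CPM with OmoMYC (ENSG00000125398.5, chromosome 17 from 70117161 to 70122557). The lowest EGFP library was just above the highest OmoMYC library. The log2 fold change was -0.53 (95% interval -0.93 to -0.13, adjusted p = 0.0311). This call rested on single libraries. The adjusted p was 0.0570 without EGFP replicate 2, 0.0821 without EGFP replicate 3 and 0.103 without OmoMYC replicate 1.

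PRRX1 was at 13.5, 11.1 and 11.1 CPM with EGFP and at 10.6, 9.76 and 9.04 CPM with OmoMYC (ENSG00000116132.7, chromosome 1 from 170631869 to 170708562). The groups did not overlap, and the log2 fold change was -0.28 (95% interval -0.53 to -0.03, adjusted p = 0.0603). Without EGFP replicate 3 the adjusted p was 0.0201, and with the trend for GC content and length removed it was 0.322 at a log2 fold change of -0.10. SNAI2, the zinc finger repressor also called SLUG, was at 6.69, 6.37 and 7.85 CPM with EGFP and at 6.34, 6.49 and 5.85 CPM with OmoMYC (ENSG00000019549.4, chromosome 8 from 49830157 to 49834299). It was the 1 tested marker whose groups overlapped, with a log2 fold change of -0.16 (95% interval -0.42 to 0.10, adjusted p = 0.275).

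NOTCH2, a receptor for Jagged and Delta ligands, was listed at 0 in the 3 EGFP libraries and had 2, 0 and 0 counts with OmoMYC (ENSG00000134250.13, chromosome 1 from 120454176 to 120643366). In parental cells it had 35 to 53 counts with DMSO and 28 to 57 with dTAG47. A 0 in the first table cannot be read as absence. Of 7714 shared identifiers at 20 CPM or more in DMSO libraries, 101 were below 0.1 CPM in EGFP libraries, and 0 identifiers showed the reverse. Among the 101 was RPS19, a ribosomal protein gene that every cell uses, with 21335 to 25466 counts with DMSO and 0 to 3 with EGFP. NOTCH2 also shares near-identical sequence with NOTCH2NL, which had 58 to 123 counts in parental cells, so its counts are uncertain in both tables.

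**Figure D3:**
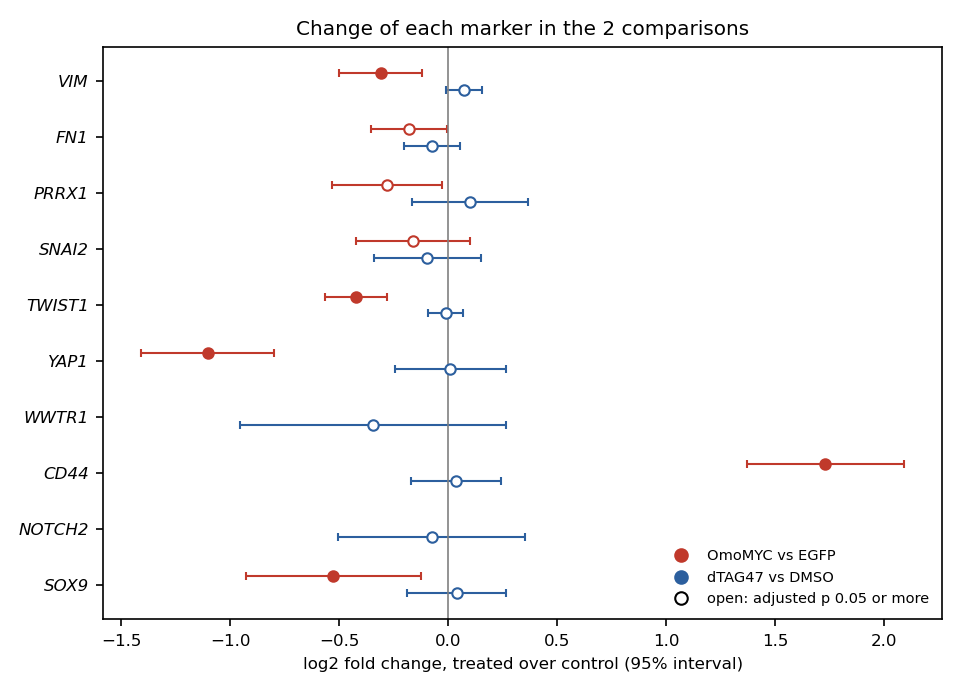
Log2 fold change (horizontal axis) with its 95% interval for each marker, OmoMYC over EGFP in red and dTAG47 over DMSO in blue, filled where the adjusted p was below 0.05. With OmoMYC, CD44 stands at 1.73 and YAP1 at -1.10, while with dTAG47 the 10 markers lie between -0.35 and 0.10 and none is filled; WWTR1 and NOTCH2 were not tested with OmoMYC.

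Antisense or overlapping genes shared 12.7% of the exon bases of VIM, 9.95% of those of YAP1, 9.05% of those of WWTR1 and 7.06% of those of TWIST1, each on the opposite strand. None of these genes is listed in either table. The counting is not stated to use strand, so reads of each pair cannot be told apart.

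Fibroblasts express many of the same genes, and their markers also differed between the lines. Their summed level was 120 to 130 CPM with EGFP and 89.0 to 100 CPM with OmoMYC, and 0 of the 8 genes were at 0 in either group. Of 7 tested, COL1A1 and DCN were called higher and PDGFRA, PDGFRB and COL1A2 lower, with PDGFRB, the most abundant, falling from 47.0 ± 3.06 to 36.8 ± 1.68 CPM (log2 fold change -0.35, adjusted p = 0.00403). Their part in the changes of VIM and TWIST1 was not tested. Among markers of other types, the most abundant were CLDN5 for endothelium (2.83 ± 0.586 CPM with EGFP and 1.39 ± 0.260 CPM with OmoMYC), EPCAM for epithelium (1.10 ± 0.429 and 1.26 ± 0.132) and CD14 for immune cells (0.739 ± 0.167 and 0.412 ± 0.0590). With DMSO the most abundant fibroblast, immune and epithelial markers were PDGFRA at 18.4 ± 0.866 CPM, PTPRC at 1.04 ± 0.0938 CPM and CLDN4 at 2.61 ± 0.317 CPM, and none of these 3 was called with dTAG47.

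Further genes tied to the mesenchymal state were read against all genes tested, of which 53.0% were called with OmoMYC, 27.3% higher and 25.7% lower. The share called in the lists below ran from 36.4% to 60.0%, on both sides of that of all genes, and the counts are given as a description. Of 26 further mesenchymal regulators, 21 were tested, 3 were called higher and 7 lower (47.6% in all), with a median log2 fold change of -0.11. TBX18, a T-box factor of mesenchymal cells, rose from 3.88 ± 1.03 to 262 ± 10.0 CPM (log2 fold change 6.07, SE 0.15, adjusted p = 4.79e-10). JUN, a subunit of AP-1, rose from 67.0 ± 9.20 to 177 ± 11.4 CPM (1.40, SE 0.10). In parental DMSO libraries JUN was at 113 ± 4.16 CPM. SIX4 fell by 0.60 and ZEB2, a zinc finger repressor, fell by 0.58 on the log2 scale. ZEB1, SNAI1 and SMAD3 had log2 fold changes of -0.01, 0.04 and 0.01 and were not called.

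Of 35 genes of matrix, cytoskeleton and cell surface, 29 were tested, 9 were called higher and 5 lower (48.3% in all), with a median of -0.11. LMNA, which encodes A-type lamins, rose by 0.95, and the collagen COL6A1 rose by 0.91 on the log2 scale, from 98.0 ± 19.6 to 184 ± 17.5 CPM. The matrix protein gene THBS1 fell by 1.37 and the cadherin gene CDH11 by 0.72. With the trend for GC content and length removed, the rises were 0.49 for LMNA and 0.40 for COL6A1. FLNA, which encodes filamin A, was among the 101 identifiers near 0 in the EGFP table and was not tested.

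YAP1 and WWTR1 (TAZ) encode coactivators of TEAD factors. Of 24 of their targets, 19 were tested, 3 were called higher and 8 lower (57.9% in all), with a median of -0.11. AJUBA fell from 5.16 ± 0.306 to 2.50 ± 0.254 CPM (log2 fold change -1.04), and LATS2 from 2.46 ± 0.543 to 1.16 ± 0.311 CPM (-1.11). NT5E, the surface enzyme CD73, rose from 0.730 ± 0.245 to 3.73 ± 0.424 CPM (2.35), and IGFBP3 rose from 0.872 ± 0.147 to 3.63 ± 1.03 CPM (2.06). CYR61 and CTGF, the classical targets, had log2 fold changes of -0.12 (SE 0.22) and 0.43 (SE 0.31) with adjusted p = 0.672 and 0.275. Both had few counts. CYR61 had 33 to 35 with EGFP and 28 to 49 with OmoMYC, and CTGF had 9 to 19 and 20 to 24. Among Hippo kinases, adaptors and TEAD partners, 4 of 21 tested genes were called higher and 7 lower (52.4% in all), with a median of -0.11. The kinase gene STK3 fell from 11.6 ± 1.18 to 5.36 ± 0.437 CPM (-1.12), and the atypical cadherin gene FAT4 rose from 7.25 ± 1.46 to 14.1 ± 0.406 CPM (0.95). AMOTL2, which binds YAP1, rose by 0.62 on the log2 scale, or by 0.22 with the trend removed. TEAD1 did not pass the test, at -0.17 on the log2 scale (adjusted p = 0.0557). LATS2, AMOTL2, PTPN14 and WWC1 are on both lists.

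In the Notch pathway, 16 of 18 genes were tested, 3 were called higher and 4 lower (43.8% in all), with a median of -0.16. The ligand gene DLL1 rose from 1.85 ± 0.206 to 4.23 ± 0.588 CPM (log2 fold change 1.19), and HEYL, a transcriptional target, rose by 0.91 on the log2 scale. DLL3 fell from 135 ± 17.3 to 86.8 ± 5.53 CPM (-0.64), and NOTCH1 fell from 12.5 ± 2.11 to 8.90 ± 0.608 CPM (-0.49). With the trend removed, DLL1 was at 0.74, HEYL at 0.55, NOTCH1 at -1.13 and DLL3 at -1.07. HES1 did not pass the test, at 0.29 on the log2 scale (SE 0.54, adjusted p = 0.672). It had only 3 to 21 counts with EGFP and 8 to 18 with OmoMYC.

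Of 15 partners of fibronectin and CD44, 10 were tested, 2 were called higher and 4 lower (60.0% in all), with a median of -0.30. The fibronectin receptor subunits ITGA5 and ITGA4 fell from 10.3 ± 0.936 to 4.19 ± 0.607 CPM (log2 fold change -1.29) and from 22.3 ± 2.51 to 9.48 ± 1.31 CPM (-1.23). RDX, the ezrin-like linker of CD44 to actin, rose by 0.35 on the log2 scale, or by 0.60 with the trend removed. HAS3, a hyaluronan synthase, rose by 0.47 and was not called with the trend removed (adjusted p = 0.137).

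Among relatives of SOX9, SNAI2 and TWIST1, 3 of 11 tested genes were called higher and 1 lower (36.4% in all), with a median of 0.08. SOX8 rose by 1.17 and SNAI3 by 0.97 on the log2 scale, while TCF12, a dimer partner of TWIST1, fell from 273 ± 19.1 to 213 ± 10.0 CPM (-0.36). TCF4, on the same list as TCF12, rose by 0.49 on the log2 scale (adjusted p = 1.28e-04). TCF3, also on that list, was not called, at -0.17 (adjusted p = 0.154). With the trend removed, SOX8 was at 0.65 (adjusted p = 0.0398) and SNAI3 at 0.59. Of the 23 adrenergic genes, 22 were tested, 8 were called higher and 4 lower (54.5% in all), with a median of 0.09. TBX2 rose by 0.99 and ISL1 by 0.75, and HAND1 fell by 0.49 on the log2 scale. With the trend removed, TBX2 was at 0.48 and HAND1 at -0.77.

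**Figure D4:**
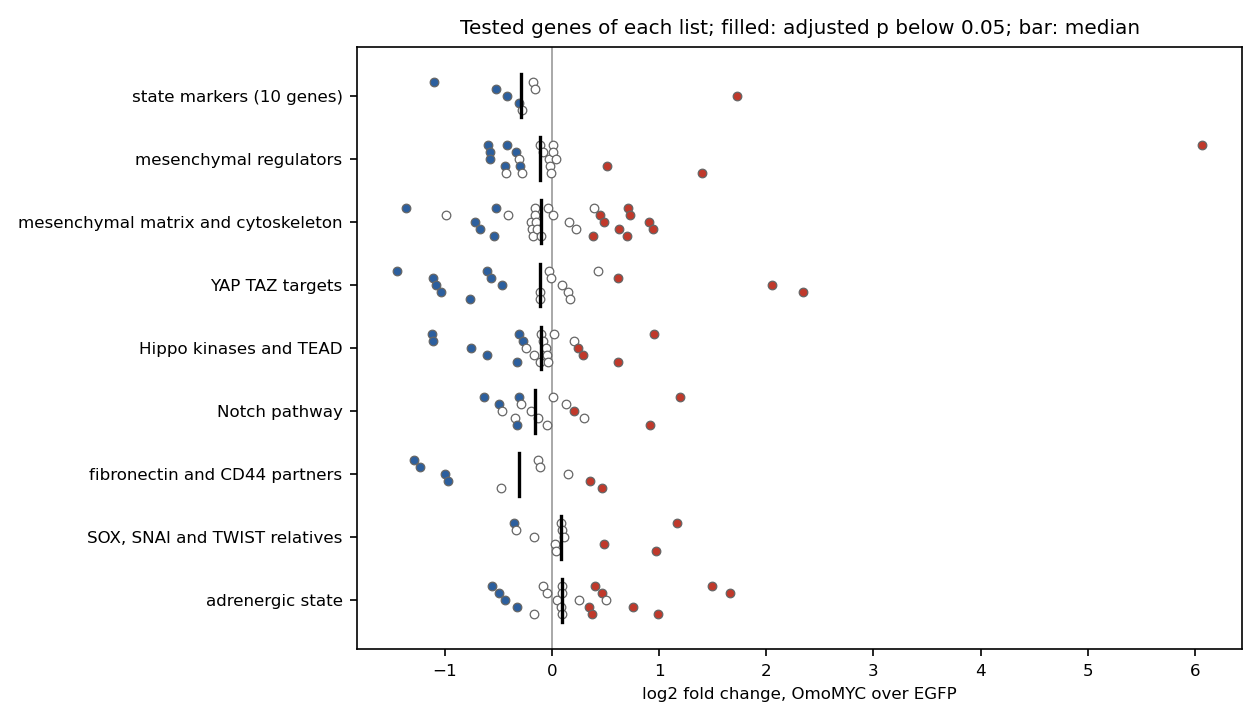
Log2 fold change of OmoMYC over EGFP (horizontal axis) for each tested gene of the 10 markers and of the 8 lists, with red for genes called higher, blue for genes called lower, open points for genes not called and a bar at the median. Called genes lie on both sides of 0 in each row, the medians lie between -0.30 and 0.09, and TBX18 stands at 6.07.

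In parental cells treated with dTAG47, no marker was called. All 10 passed the filter, 0 were called by edgeR, DESeq2 or limma-voom, and 0 had an unadjusted p below 0.05. DMSO and dTAG47 libraries overlapped for each of the 10. Among all 14470 genes tested, 0.159% were called and 3.34% had groups that did not overlap, and 1053 had an unadjusted p below 0.05. The smallest interval belonged to TWIST1, at 281 to 289 CPM with DMSO and 269 to 292 CPM with dTAG47. Its log2 fold change was -0.01 (95% interval -0.09 to 0.07).

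VIM was at 130, 138, 133 and 135 CPM with DMSO and at 146, 142, 140 and 137 CPM with dTAG47. A single DMSO library lay within the dTAG47 range, and the log2 fold change was 0.07 (95% interval -0.01 to 0.16, adjusted p = 0.677). CD44 was at 2.95 to 3.59 CPM with DMSO and at 3.10 to 3.50 CPM with dTAG47 (0.04, 95% interval -0.17 to 0.24). YAP1 was at 2.21 to 2.52 CPM and 2.00 to 2.69 CPM (0.01, 95% interval -0.25 to 0.26). For VIM, CD44, YAP1, TWIST1, SOX9 and PRRX1, the intervals with dTAG47 do not contain the log2 fold changes measured with OmoMYC. Those of FN1 and SNAI2 do contain them. The difference between the experiments was not tested.

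The remaining markers were not called either, with log2 fold changes as follows. FN1 (-0.08, 95% interval -0.20 to 0.05), PRRX1 (0.10, -0.16 to 0.36), SNAI2 (-0.10, -0.34 to 0.15) and SOX9 (0.04, -0.19 to 0.26) overlapped between the groups. WWTR1, with 11 to 27 counts per library, had a log2 fold change of -0.35 (95% interval -0.96 to 0.26), and NOTCH2 one of -0.08 (-0.50 to 0.35). For WWTR1 and NOTCH2, a change of the size seen for TWIST1 with OmoMYC (-0.42) lies within these intervals and was not detectable at this depth.

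The calls in the lists around the markers depended on the model with dTAG47. Of 166 genes on the 8 lists, 142 were tested, 0 were called by edgeR and by limma-voom, and DESeq2 called VGLL4. These counts rest on a model without a term for replicates. With a factor for replicates 1 and 2 against 3 and 4, edgeR called 3 mesenchymal regulators, 3 matrix and cytoskeleton genes, 4 Hippo and TEAD genes, 1 partner of fibronectin and CD44, 2 SOX, SNAI and TWIST relatives and 1 adrenergic gene, with 374 genes higher and 420 lower over all genes and still 0 of the markers. By edgeR without that factor, 14 had an unadjusted p below 0.05. The median log2 fold change was 0.00 for the markers and for the mesenchymal regulators, and 0.07 for the matrix and cytoskeleton genes.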

How the data were processed

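RNA-seq libraries of CHP-134 cells were analysed in 2 experiments, EGFP against OmoMYC (3 each) and DMSO against dTAG47 (4 each). Reads were trimmed (Cutadapt) and mapped by STAR to hg19, and the authors deposited the whole-number counts per gene from featureCounts without normalization. The submitters' processing notes also name DESeq2. The annotation, strand setting, handling of multimapping reads and tool versions are not given in the sources used here.

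From these counts, genes were filtered with filterByExpr, scaled by TMM and tested with the robust quasi-likelihood test of edgeR 4.0.16 in R 4.3.3, with Benjamini-Hochberg adjustment over all genes tested in an experiment and an FDR of 0.05. Alternative tests were DESeq2 1.42.0, the tool of the study's methods, and limma-voom (limma 3.58.1). Intervals are 95% intervals of the edgeR coefficient. CPM uses TMM-scaled library sizes, and RPKM divides CPM by the kilobases of merged exons, taken from GENCODE models placed on GRCh37 (hg19). Gene positions come from the same annotation. Totals of 28060817 to 53451641 counts per library set the counting precision, and a group with at most 3 counts in every library was taken as being at the floor.

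Besides the 10 markers, MYC and MYCN, the text names, for each list, up to 2 genes with the largest rise and up to 2 with the largest fall among genes called with OmoMYC whose groups did not overlap and whose mean reached 1 CPM, each listed gene called with dTAG47 and the most abundant gene of each marker list. Some genes that this rule names are not reported here. COL1A1, DCN, COL1A2, ZEB1, SNAI1, SMAD3, CYR61, CTGF, TEAD1, HES1, FLNA, VGLL4, RPS19, NOTCH2NL, PTPN14, WWC1, TCF3, TCF4, KDR and the neighbors of TBX18 were named after their values were seen. The markers and lists were chosen with earlier results of these data known.

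Further alternatives were scaling by RLE, by upper quartiles or by totals alone, testing every gene with a count, requiring 10 counts in each library, a replicate block, removal of a spline trend on GC content and transcript length, a factor for replicates 1 and 2 against 3 and 4 in parental cells, the longest transcript as gene length and leaving out each library in turn. Scripts were tested on simulated data. Start regions come from RefSeq (GRCh38.p14), and start positions were not converted between builds.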

Additional observations from a re-analysis of the deposited data

Results flagged for a closer look

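In groups of 4 libraries, each marker's CPM was checked for a library set apart, by Dixon's test at the 95% level, which sets the gap to the nearest neighbor against the range of the group. Of 20 groups checked, 1 was set apart. WWTR1 was at 0.342 CPM (14 counts) in DMSO replicate 3 and at 0.485 to 0.497 CPM (23 to 25 counts) in the other DMSO libraries, a gap of 0.924 of the range. Chance sets apart about 1 in 20 such groups, and the dTAG47 libraries of WWTR1 ran from 0.212 to 0.501 CPM. Without this library the log2 fold change of WWTR1 with dTAG47 was -0.45 and was not called, as with all libraries.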

How the results depend on the processing

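With OmoMYC, CD44, YAP1, TWIST1 and VIM kept their direction and their call under each of the 15 alternatives. The number of markers called lower ran from 3 to 6 (3 to 5 when each library was left out in turn), and 1 was called higher throughout. The median log2 fold change of the markers ran from -0.36 to -0.22 over all of these settings. FN1 was called with upper quartile factors (adjusted p = 0.0499) and with the trend for GC content and length removed (0.0167), and PRRX1 with upper quartile factors (0.0438). Removing that trend turned SNAI2 to 0.032 (adjusted p = 0.834). The same removal raised the calls among mesenchymal regulators from 10 to 16 and among SOX, SNAI and TWIST relatives from 4 to 9. Calls also rose over all 13803 genes tested, with 2977 higher and 5533 lower instead of 3766 and 3545.

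Replicate numbers did not clearly pair the samples in the OmoMYC experiment. Deviations of same-numbered libraries correlated at 0.076, -0.070 and 0.293 there, and at 0.009 to 0.159 in the parental experiment. In parental cells, control and treated libraries correlated positively within replicates 1 and 2 and within 3 and 4 (0.009 to 0.247). Between these 2 sets of replicates every correlation was negative (-0.226 to -0.019). The labels do not say what sets them apart. With a replicate block, 5 markers were called lower with OmoMYC, PRRX1 being added (adjusted p = 0.0292). Over all 13803 genes tested, this block called 4233 higher and 3867 lower, instead of 3766 and 3545. With dTAG47, the block raised all calls from 17 higher and 6 lower to 306 and 362, but 0 markers were called. It called 2 mesenchymal regulators, 1 matrix gene, 4 Hippo and TEAD genes, 1 fibronectin or CD44 partner, 2 SOX, SNAI and TWIST relatives and 1 adrenergic gene, where 0 were called without it. The factor for replicates 1 and 2 against 3 and 4 called 3, 3, 4, 1, 2 and 1 in the same order (374 and 420 genes in all), and removal of the trend 2, 1, 1, 0, 1 and 1 (76 and 34 in all). DESeq2 called 1 Hippo and TEAD gene (43 and 16 in all). Leaving out each library in turn gave 0 to 1 calls for mesenchymal regulators and for adrenergic genes, the 1 in each without dTAG47 replicate 2, when 52 genes rose and 32 fell.

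With dTAG47, no marker was called under any of 18 alternatives, and directions near 0 turned. With each library left out in turn, log2 fold changes ran from -0.027 to 0.012 for TWIST1, from -0.057 to 0.077 for YAP1, from -0.010 to 0.083 for CD44, from -0.21 to 0.065 for NOTCH2 and from -0.046 to 0.091 for SOX9. By library size only, YAP1 was at -1.54e-04. The cause of these shifts was not tested. The longest transcript as length put PRRX1 above SNAI2 in the EGFP, OmoMYC and dTAG47 libraries, above SOX9 in DMSO libraries, and CD44 above YAP1 in parental cells. Depth limits WWTR1, which did not pass the filter with OmoMYC. NOTCH2 did not pass it either, but its part in the identifiers near 0 in that table was not tested, so depth is not shown to be its limit. With no filter, WWTR1 was at 0.37 (adjusted p = 0.620).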

Other observations

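TBX18, the regulator with the largest rise, lies on chromosome 6 of hg19 from 85397069 to 85474316, and NT5E, the YAP and TAZ target with the largest rise, lies 685 kb from it. These neighbors were chosen after the values were seen, and 53.0% of all genes tested were called with OmoMYC. Of the other 7 tested genes within 1000 kb of TBX18, SNAP91 was called higher (log2 fold change 0.81), MRAP2 (-1.42), SYNCRIP (-0.49), SNX14 (-0.43), RIPPLY2 (-0.39) and KIAA1009 (-0.38) were called lower, and CYB5R4 was not called (-0.01). In parental DMSO libraries TBX18 was at 1.53 ± 0.293 CPM and NT5E at 0.943 ± 0.163 CPM (SD, n = 4). KDR, an endothelial marker that is not a state marker, was called higher with OmoMYC, at 0 to 3 counts in EGFP libraries and 35 to 53 counts in OmoMYC libraries, and had 0 to 4 counts in DMSO libraries.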
